A study of Mus musculus with 4 samples.

Results

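The genes described here are 10 genes of the response to low oxygen in mouse pancreatic islets: Hif1a, Epas1, Hif3a, Egln1, Egln3, Car9, Adm, Vegfa, Bnip3 and Ddit4. They were chosen by name: every probe whose gene name in the scanner files is one of these symbols was taken, on all 4 arrays. This gave 19 of 55681 probes and 10 of 22328 named genes. Of the 19 probes, the scanner software called 15 well above background on all 4 arrays, 1 on 2 arrays and 3 on none. Each of the 10 genes had at least 1 probe above background on all 4 arrays. Probes of a gene share its transcript and are not replicates.

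Islets of C57BL/6 mice aged 24 weeks were measured on 1-colour Agilent arrays, with 1 array per group. Male WT stands for wild-type males, and male Tg for transgenic males, which the labels call diabetic. Male Tg E2 stands for transgenic males given an implant of E2 (estradiol, the main estrogen) and profiled 6 weeks later, and female Tg for transgenic females without an implant named in the labels. Where 4 values follow each other in array order, they belong to male WT, then male Tg, then male Tg E2, then female Tg. The labels used here name neither the transgene nor the promoter that drives it, and do not say how many mice gave RNA to an array. All islets had been freed with collagenase, separated on a gradient and picked by hand.

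With 1 array per group, each difference below is one between 2 arrays. No test was possible, no p-value is given and the spread between mice is unknown. Levels are log2 processed Cy3 intensity minus the array's 75th percentile, so a level of 0 equals that percentile and a difference of 1 is 2-fold. The error given with ± is the standard error (SE) from the scanner software's error model, which covers the spot and the array but not the mice. A gene was called higher or lower when it differed by at least 2-fold and was well above background on both arrays. The lists of genes and cell type markers were written from general knowledge. A level can be compared between arrays for 1 probe, not between probes. In RNA of a whole islet, fewer cells of a type and less RNA per cell cannot be told apart.

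Between 49.9% and 54.8% of spots were well above background per array and no spot was saturated. The 75th percentile of processed intensity lay between 202.4 on the male Tg array and 365 on the male WT array. The median standard deviation among the spots of probes spotted 10 times was 0.0656 to 0.0752 log2 per array. Markers of beta cells (10 of 10), alpha cells (8 of 8) and delta cells (4 of 4) were above background on every array, as the label islet asks. So were 14 of 14 markers of acinar cells, the enzyme-secreting cells of the surrounding pancreas. Their summed level, relative to the 75th percentile, was 957.7 on male WT, 12451 on male Tg, 7753 on male Tg E2 and 1060 on female Tg.

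As background, cells sense oxygen through enzymes that hydroxylate prolines on the alpha subunits of hypoxia-inducible factors (HIF). With oxygen present, the hydroxylated subunits are bound by the von Hippel-Lindau protein and destroyed. When oxygen is short they persist, pair with ARNT and bind DNA at a short core motif near genes for glycolysis, blood vessel growth, acid handling and mitochondrial turnover. Because this control acts on the protein, the mRNA of a HIF subunit does not report its activity. Islets are richly vascularised, and their beta cells are a source of VEGF-A, which keeps the islet capillaries.

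Promoters are shown for 4 of the members that differed by over 2-fold between male Tg and male WT, with Car9, Adm and Egln3 higher and Bnip3 lower. Hif3a and Vegfa also differed by over 2-fold, and their promoters are not shown. Each line is the 250 bases before the transcript start in RefSeq (build GRCm38.p6), on the gene's strand. They lie at chr4:43506776-43507025 (+, Car9), chr7:110627407-110627656 (+, Adm), chr12:54203875-54204124 (−, Egln3) and chr7:138909507-138909756 (−, Bnip3). Capitals mark the HIF core motifs ACGTG and GCGTG, or their reverse complements CACGT and CACGC.
Car9: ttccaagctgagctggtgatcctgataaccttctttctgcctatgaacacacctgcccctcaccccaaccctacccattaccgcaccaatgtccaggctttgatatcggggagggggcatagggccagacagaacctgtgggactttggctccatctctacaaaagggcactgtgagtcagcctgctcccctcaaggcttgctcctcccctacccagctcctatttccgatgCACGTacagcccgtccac
Adm: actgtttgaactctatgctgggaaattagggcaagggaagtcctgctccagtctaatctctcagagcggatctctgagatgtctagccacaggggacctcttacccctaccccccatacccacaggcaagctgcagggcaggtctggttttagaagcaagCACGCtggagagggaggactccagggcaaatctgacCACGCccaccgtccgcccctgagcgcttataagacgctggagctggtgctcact
Egln3: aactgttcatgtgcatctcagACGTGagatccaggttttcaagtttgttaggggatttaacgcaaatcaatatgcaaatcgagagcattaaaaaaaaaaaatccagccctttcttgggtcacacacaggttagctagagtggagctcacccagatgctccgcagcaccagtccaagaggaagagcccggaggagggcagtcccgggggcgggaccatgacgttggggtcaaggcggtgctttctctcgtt
Bnip3: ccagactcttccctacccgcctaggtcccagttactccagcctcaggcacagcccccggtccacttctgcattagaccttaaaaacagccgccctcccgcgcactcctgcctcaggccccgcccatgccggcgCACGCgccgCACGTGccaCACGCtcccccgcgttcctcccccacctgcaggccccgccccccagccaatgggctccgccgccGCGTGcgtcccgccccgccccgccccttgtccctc

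The Car9 promoter holds a single core motif, at position −18 from the start, on the opposite strand. Adm has GCGTG at −90 and −54, again on the opposite strand, and Egln3 has ACGTG at −229. Bnip3 has matches at −117, −108, −107, −99 and −35, of which those at −108 and −107 are the overlapping readings of CACGTG on the 2 strands, a palindrome that other factors also bind. In windows from 250 bases before to 50 after the start, 9 of 10 listed promoters of the genes held at least 1 match on either strand (90.0%), against 43.8% of 32851 promoters of 27025 genes. ACGTG was in 7 of these 10 promoters and in 19.6% of all, GCGTG in 6 and in 32.4%, and CACGTG in 2 and in 7.15%. The main start of Vegfa (upstream bases chr17:46032378-46032627) holds neither motif in this window, while a second listed start holds 2 matches. The table has no entry for Epas1. Matches were found in promoters of genes that were higher, lower and between on the male Tg array. A match is a stretch of letters and not a measured binding site.

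**Figure D1:**
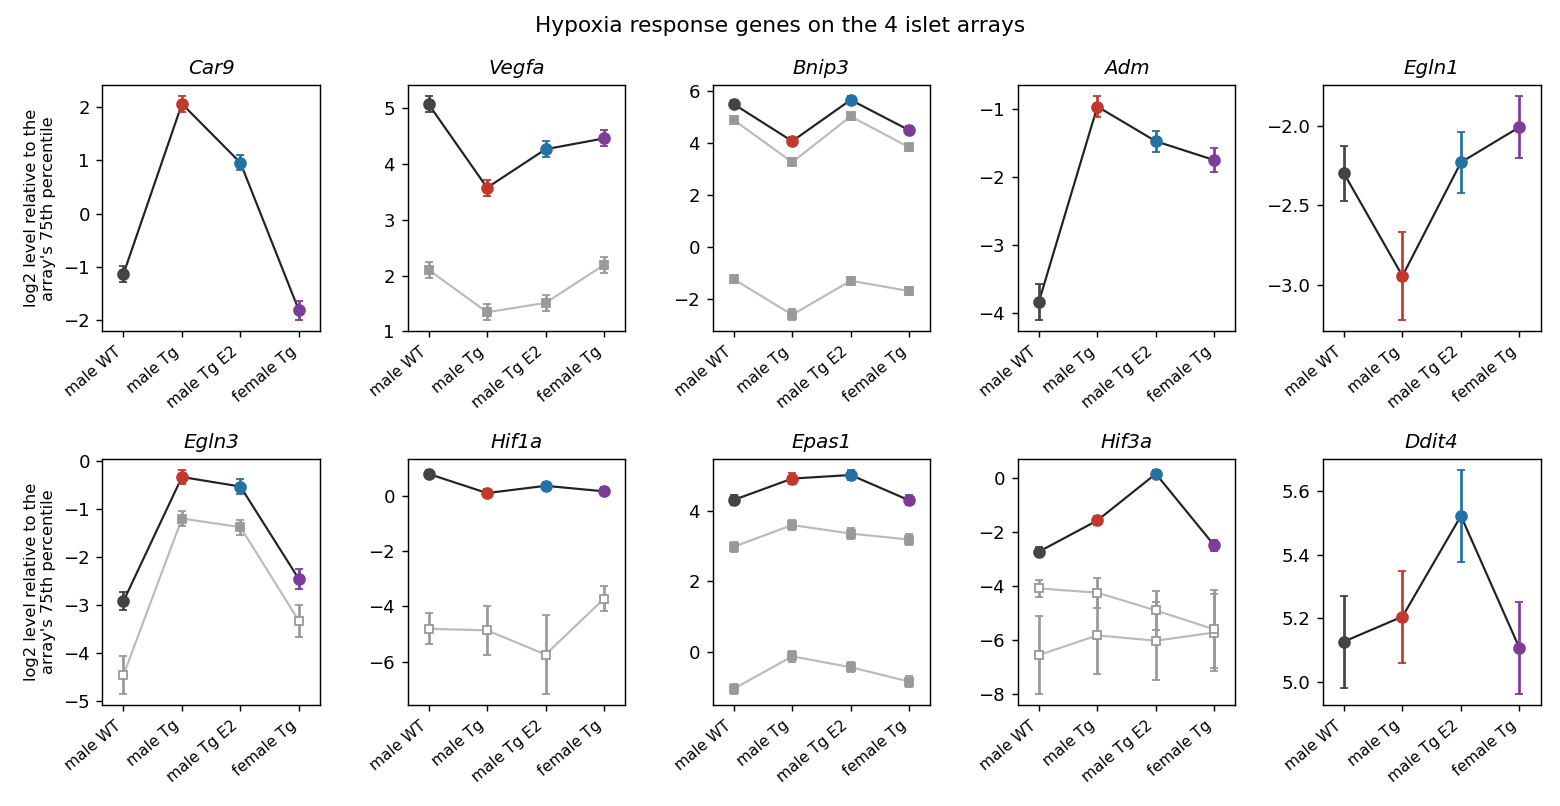
Levels of the 10 genes on the 4 arrays (y axis: log2 processed intensity relative to the array's 75th percentile, with its own range in each panel; bars: ± 1 SE of the scanner software's error model; 1 array per group). Filled circles are the probe with the highest mean level, grey squares the other probes, and open squares values not well above background. Car9 and Egln3 stood highest on the male Tg array with male Tg E2 next, whereas Vegfa and Bnip3 stood lowest on the male Tg array.

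The HIF alpha subunits come first. Hif1a, which encodes the subunit HIF-1 alpha found in nearly all cells, was read by 1 probe above background (chr12:75047269-75047329, +, mm9). Its levels were 0.79 on male WT, 0.10 on male Tg, 0.36 on male Tg E2 and 0.16 on female Tg. The male WT array was highest, and the 2 lowest, female Tg and male Tg, lay 0.06 ± 0.21 apart. Male Tg was 0.69 ± 0.21 below male WT, short of 2-fold under all scalings but median centring, where the difference was −1.03. A second Hif1a probe, for another transcript, was below background on all 4 arrays.

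Epas1 encodes HIF-2 alpha, which is abundant in endothelial cells. Its brightest probe (chr17:87232615-87232674, +, mm9) had levels of 4.30, 4.90, 5.0 and 4.29 in array order. Male Tg and male Tg E2 were the higher pair and did not differ beyond the SE (0.10 ± 0.20). Male WT and female Tg formed the lower pair, 0.01 apart. Male Tg was 0.60 ± 0.20 above male WT by this probe and 0.92 and 0.62 above it by the other Epas1 probes, each under 2-fold. For male Tg E2 over male Tg the other probes had the opposite sign (−0.31 and −0.24), and the first probe's sign also changed with the scaling, so no direction is given. The summed level of 12 endothelial markers was 78.7, 102, 87.8 and 79.6 in array order, all 12 above background on each.

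Hif3a encodes a further alpha subunit, whose short forms can hold back the other two. It was read by 1 of 3 probes (chr7:17616855-17616914, −, mm9), with the others below background throughout. Levels were −2.73 on male WT, −1.57 on male Tg, 0.17 on male Tg E2 and −2.49 on female Tg. The male Tg E2 array stood far above the rest: 1.73 ± 0.22 above male Tg (3.33-fold), 2.89 above male WT (7.43-fold). Female Tg differed from it by −2.66 ± 0.26 (6.33-fold). Male WT and female Tg differed by 0.23, less than the SE. Male Tg was 1.16 ± 0.24 above male WT (2.23-fold), but this ranged from 0.82 to 1.37 over the alternatives and fell short of 2-fold under 4 of them. Which transcript forms this probe reads was not analysed here.

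The prolyl hydroxylases that mark HIF for destruction followed separate patterns. Egln1 encodes PHD2, the main oxygen sensor of most cells. Its only probe was dim, with levels of −2.30, −2.94, −2.23 and −2.01 in array order. Male Tg was the lowest array, and the other 3 lay within 0.29 of each other. The difference of male Tg from male WT was −0.65 ± 0.33, and with normexp background correction it was 0.08, so its sign is not settled. The scanner files place this probe at chr8:127432487-127432499 (−, mm9), a span shorter than the probe.

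Egln3 encodes PHD3, which is itself strongly induced by HIF in many cells. Levels of its brighter probe (chr12:55280953-55281012, −, mm9) were −2.93 on male WT, −0.34 on male Tg, −0.54 on male Tg E2 and −2.47 on female Tg. The arrays fell into a high pair, male Tg and male Tg E2, which differed by 0.20 ± 0.21, and a low pair. Male Tg was 2.59 ± 0.24 above male WT (6.01-fold), and female Tg was 2.13 ± 0.26 below male Tg (4.37-fold). The second probe (chr12:55281252-55281311) was above background only on the high pair. By that probe, male Tg was at least 8.32-fold above male WT, and female Tg at least 4.39-fold below male Tg. An "at least" value is a lower bound, taken against the higher of the probe's own reading on the dim array and the lowest level called above background there.

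Among the HIF targets, Car9 had the widest range of the 10 genes. It encodes carbonic anhydrase IX, an enzyme on the cell surface that helps export acid and is a standard marker of hypoxic tissue. Processed intensities of its probe (chr4:43526518-43526577, +, mm9) were 166 on male WT, 846 on male Tg, 580 on male Tg E2 and 73.8 on female Tg. The corresponding levels were −1.14, 2.06, 0.96 and −1.82. No 2 arrays lay within the SE of each other: male Tg was highest, male Tg E2 next, then male WT and female Tg. Male Tg was 3.20 ± 0.21 above male WT (9.20-fold), and 1.63% of all measured genes had a larger difference upwards. Male Tg E2 was 1.11 ± 0.20 below male Tg (2.16-fold), and this ranged from −1.23 to −0.94 over the alternatives. Female Tg was 3.89 ± 0.23 below male Tg (14.8-fold), lower than 99.4% of measured genes, and 2.78 ± 0.24 below male Tg E2 (6.86-fold).

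Adm encodes adrenomedullin, a secreted peptide that widens vessels and is induced by HIF. Levels of its probe (chr7:117773088-117773147, +, mm9) were −3.84, −0.96, −1.47 and −1.75 in array order. Only the male WT array was low, and the 3 transgenic arrays lay within 0.79 of each other. Male Tg was 2.87 ± 0.31 above male WT (7.33-fold), male Tg E2 2.36 above it and female Tg 2.09 above it. The male WT intensity was close to background (25.6), and with normexp the difference of male Tg from male WT was 1.56.

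Vegfa encodes VEGF-A, the growth factor that recruits and keeps blood vessels. Its brighter probe (chr17:46154387-46154446, −, mm9, 2 spots) had levels of 5.07 on male WT, 3.57 on male Tg, 4.26 on male Tg E2 and 4.46 on female Tg. Male WT was highest and male Tg lowest, and the other 2 arrays did not differ beyond the SE (0.19 ± 0.20). Male Tg was thus 1.5 ± 0.20 below male WT (2.82-fold), the opposite direction to Car9, Adm and Egln3. The second probe (chr17:46162376-46162435, −, mm9) gave levels of 2.10, 1.34, 1.51 and 2.19. It also put male Tg lowest, but 0.76 below male WT, which is under 2-fold. The probes differed in sign for female Tg over male WT (−0.61 and 0.09).

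Bnip3 encodes a mitochondrial outer membrane protein that promotes the removal of mitochondria and cell death. Its brightest probe (chr7:146082760-146082819, −, mm9) had levels of 5.50, 4.07, 5.66 and 4.49 in array order. Male WT and male Tg E2 formed a high pair, 0.16 ± 0.20 apart, while male Tg and female Tg were low. Male Tg was 1.42 ± 0.20 below male WT (2.68-fold), and male Tg E2 was 1.59 ± 0.20 above male Tg (3.0-fold). The other Bnip3 probes gave −1.62 and −1.37 for the first difference and 1.76 and 1.30 for the second, so all 3 were past 2-fold in the same direction. Female Tg was 0.42 above male Tg and 1.17 ± 0.20 below male Tg E2.

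Ddit4 encodes REDD1, a stress-induced inhibitor of the kinase complex mTORC1. Levels of its probe (chr10:59412486-59412545, −, mm9) were 5.13, 5.21, 5.52 and 5.11, the narrowest range of the 10 genes. The male Tg E2 array was highest and the other 3 lay within 0.10 of each other. Male Tg differed from male WT by 0.08 ± 0.20, and the sign of this difference changed with the scaling.

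Setting male Tg against male WT asks what differs in diabetic transgenic male islets. Of the 10 genes, Car9, Adm, Egln3 and Hif3a were at least 2-fold higher on the male Tg array, Vegfa and Bnip3 at least 2-fold lower, and 4 lay between. Of all 14382 measured genes, 15.6% were called higher and 8.68% lower. The median of the 10 genes was 0.34 log2, with single genes from −1.5 to 3.20, and that of all measured genes −0.21. The share of all genes called depended on the scaling: with median centring 12.3% were higher and 20.4% lower, and with the percentile taken over probes above background on all arrays 18.0% and 5.47%. Relative to the median of all genes, 18.4% were higher and 5.23% lower, and 4 of the 10 genes were still higher and 2 lower. The 10 genes thus did not move one way: targets that HIF is known to induce stood on both sides.

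Acinar markers moved with Car9 and Egln3. On the male Tg array, 13 of 14 acinar markers were at least 2-fold higher than on male WT, with a median difference of 4.30 log2. Ductal markers had summed levels of 144, 454, 309 and 120 in array order, and the defining duct genes were not all detected: 2, 0, 1 and 3 of 10 were not above background. Car9, Egln3, the acinar sum and the ductal sum all had male Tg highest and male Tg E2 next. The full order of the arrays was the same for Car9 and the ductal sum, and the same for Egln3 and the acinar sum. The stellate cell and matrix, endothelial and adipocyte sums had the full order of Egln3 as well, so it was not particular to acinar markers. Adm had the order of Egln3 and the acinar sum too, but female Tg was 2.09 above male WT for Adm and 0.15 log2 above it for the acinar sum. For Bnip3 the order differed, with male Tg lowest. Stellate cell and matrix markers (11 of 11 measured), lymphocyte markers (9 of 11) and red cell markers (6 of 6) were also higher on male Tg than on male WT. In array order their summed levels were 63.8, 282, 240.3 and 152 for stellate cell and matrix, 16.7, 99.6, 26.4 and 69.3 for lymphocyte and 120.4, 572, 54.7 and 170.0 for red cell markers. The stellate sum had male Tg highest, then male Tg E2, female Tg and male WT. For lymphocyte and red cell markers female Tg came next after male Tg. Of 6 adipocyte markers, 5 were above background on male Tg, against 1 on male WT, 2 on male Tg E2 and 2 on female Tg. Their summed levels were 3.56, 18.3, 7.19 and 4.33 in array order. On male Tg over male WT, 1 was measured and higher and 4 were higher by an "at least" value, with Cfd at least 118-fold and Retn at least 9.95-fold higher. Alpha cell markers (5 of 8, median 1.22) and delta cell markers (3 of 4, median 1.35) were higher on male Tg than on male WT. The same numbers of both were at least 2-fold higher than on male WT on male Tg E2 and on female Tg, where Adm was higher too. Stellate cell and matrix markers were also higher there, for 11 of 11 measured on male Tg E2 and 8 of 11 on female Tg. In the same order, so were 6 of 10 and 9 of 11 lymphocyte markers and 6 of 11 and 4 of 11 macrophage markers. On male Tg over male WT, 6 of 10 measured macrophage markers were higher. Of the beta cell markers, 6 of 10 were lower, with a median of −1.62. Ins1 (0.67), Ins2 (0.73) and Iapp (0.29) were higher, short of 2-fold. The summed level of the beta cell markers was 2645, 3351, 2612 and 2482 in array order, so it was highest on male Tg. The part of these cell types in the differences of the hypoxia genes was not tested.

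**Figure D2:**
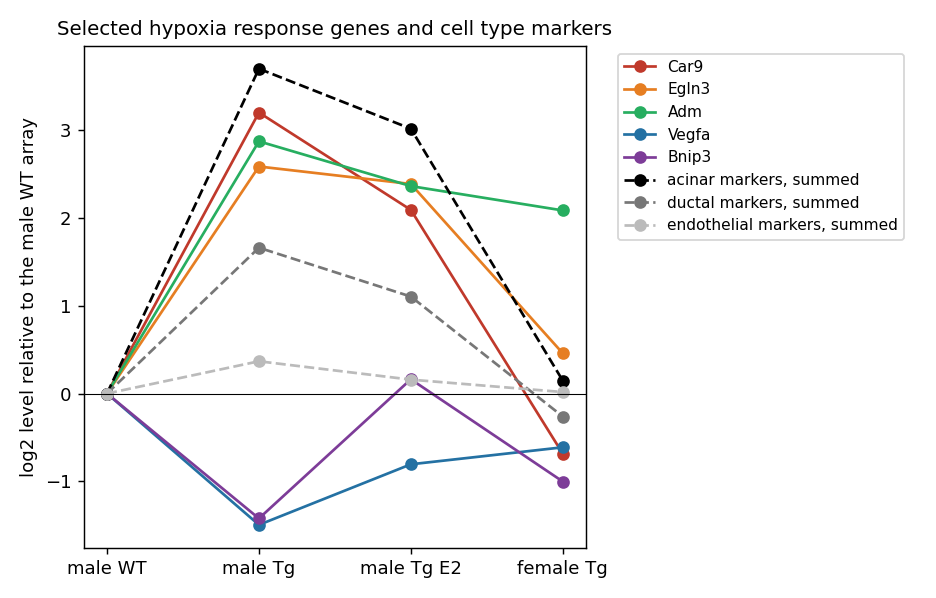
Log2 level relative to the male WT array (y axis) on the 4 arrays (x axis) for 5 of the genes (solid lines) and the summed level of 14 acinar, 10 ductal and 12 endothelial markers (dashed lines); 1 array per group, lines only join points of 1 item. The acinar sum reached 3.70 on male Tg, 3.02 on male Tg E2 and 0.15 on female Tg, and Car9 reached 3.20, 2.09 and −0.69.

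Setting male Tg E2 against male Tg asks what differs in transgenic male islets with an estradiol implant. Hif3a and Bnip3 were at least 2-fold higher on the male Tg E2 array, Car9 was at least 2-fold lower, and 7 of the 10 genes lay between. Across all 14616 measured genes, 2.55% were higher and 8.00% lower. The median of the 10 genes was 0.29 log2 and that of all genes 0.12. Vegfa (0.69 ± 0.20 by the brighter probe, 0.17 by the other) and Egln1 (0.72) were among those between. With median centring 4.08% of all genes were higher and 6.61% lower. Beside Car9, 2 of 14 acinar markers were at least 2-fold lower, with a median of −0.69 log2. Lymphocyte markers (8 of 10 measured) and red cell markers (6 of 6) were lower on male Tg E2, and 3 of 10 beta cell markers were higher. The beta cell markers Ins1 (−0.52), Ins2 (−0.48) and Iapp (−0.32) were lower, short of 2-fold. The part of these cell types was not tested. The labels call male Tg diabetic but not male Tg E2, and a group with an implant free of estradiol was not analysed here. Estradiol, the implant itself and diabetic state therefore cannot be told apart.

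Setting female Tg against male Tg asks what differs between transgenic females and the transgenic males that the labels call diabetic. Car9 and Egln3 were at least 2-fold lower on the female Tg array, none of the 10 genes was at least 2-fold higher, and 8 lay between. Across all 14207 measured genes, 3.51% were higher and 8.57% lower. The median of the 10 genes was −0.36 log2 and that of all genes 0.10. Under median centring 5.62% of all genes were higher and 7.29% lower, and Egln1 (1.08) and Vegfa (1.03) then passed 2-fold. Hif3a (−0.93 ± 0.27) passed it relative to the median of all genes (−1.02). Of the acinar markers, 13 of 14 were at least 2-fold lower on female Tg, with a median of −3.94 log2, as were 4 of 7 measured ductal markers and 7 of 12 stellate cell and matrix markers. Red cell markers were lower too (6 of 6 measured), but Epb42, above background only on female Tg, was at least 4.27-fold higher there. Of 10 beta cell markers, 4 were higher, while Ins1 (−0.55), Ins2 (−0.64) and Iapp (−0.43) were lower, short of 2-fold. Whether the lower Car9 and Egln3 go with these cells was not tested. A wild-type female group was not analysed here, so sex and the response to the transgene cannot be told apart. The labels do not call female Tg diabetic, so sex and diabetic state cannot be told apart either.

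**Figure D3:**
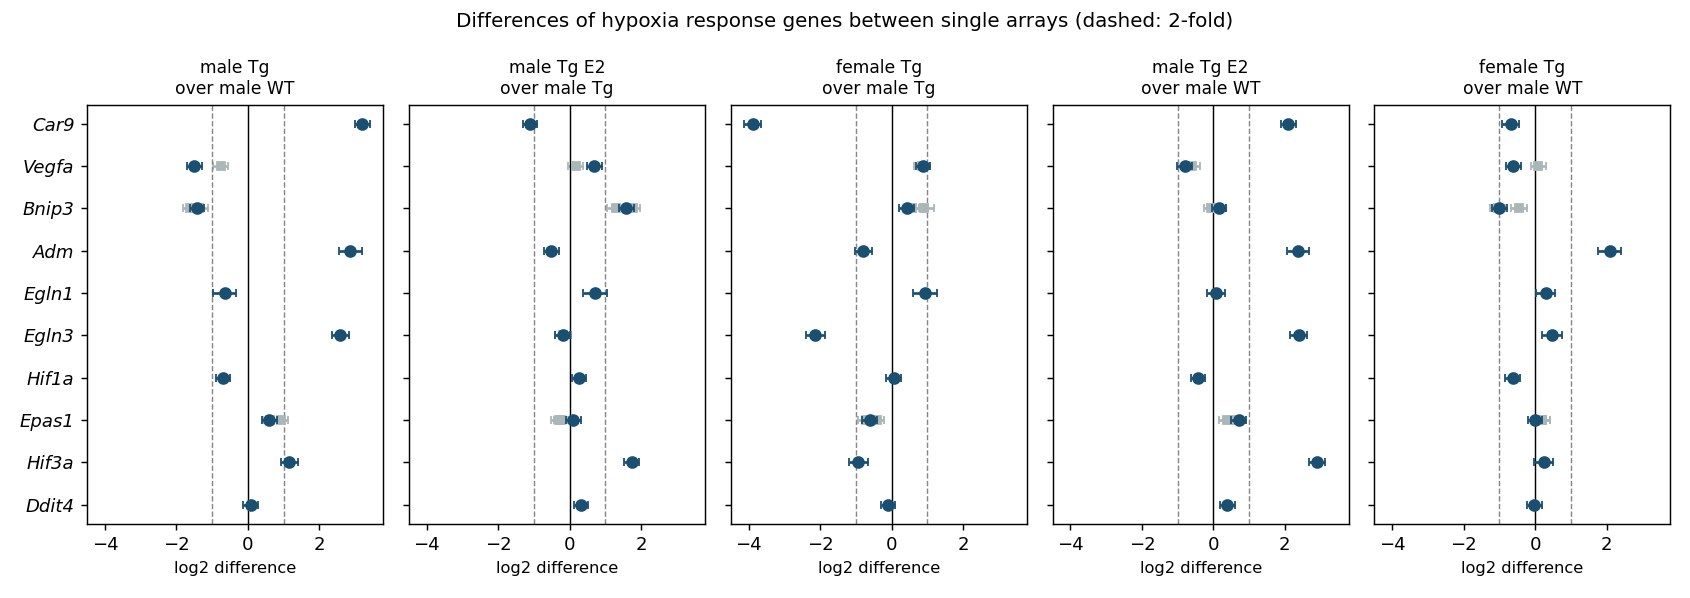
Log2 difference between 2 arrays (x axis) for the 10 genes (y axis) in 5 comparisons; dark circles are the brightest probe, grey squares the other measured probes, bars ± 1 SE of the error model, and dashed lines mark 2-fold. Comparisons that share the male Tg or the male WT array are not independent. Car9 runs from 3.20 in male Tg over male WT to −3.89 in female Tg over male Tg, while Ddit4 stays between −0.10 and 0.39.

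Set directly against male WT, Car9, Egln3, Adm and Hif3a were at least 2-fold higher on male Tg E2 (2.09, 2.39, 2.36 and 2.89) and none was lower. Here 4 of 10 genes were at least 2-fold apart, against 11.5% of all 14584 measured genes. Bnip3 was 0.16 from male WT on male Tg E2, with a sign that changed with the scaling. On female Tg, Adm was 2.09 above male WT and Bnip3 1.0 below it, and 8 genes lay between. These 2 of 10 compare with 11.1% of all 14215 measured genes. The Bnip3 difference ranged from −1.19 to −0.83 over the alternatives, and was under 2-fold in several. The comparisons share the male WT or the male Tg array, so an array that stood apart would move all of its own.

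The wider pathway was described with 8 lists of 117 further genes on the array. On male Tg over male WT, 104 of them were measured, and 22 were at least 2-fold higher (21.2%) and 8 lower (7.69%), with a median of −0.08. Among all genes 15.6% were higher and 8.68% lower. On male Tg E2 over male Tg, 2 of 108 were higher (1.85%, all genes 2.55%) and 13 lower (12%, all genes 8.00%). On female Tg over male Tg, 1 of 102 was higher (0.98%, all genes 3.51%) and 17 lower (16.7%, all genes 8.57%). Over 7 scalings the first comparison gave between 15 and 26 higher and between 4 and 18 lower, so neither direction is stated for these lists as a whole. In the other two, between 6 and 13 and between 8 and 19 genes were lower, and at most 2 and 3 higher.

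Of 17 HIF partners, hydroxylases and ubiquitin ligase parts, 1 was higher, 1 lower and 15 within 2-fold on male Tg over male WT, where 15.6% of all measured genes were higher and 8.68% lower. Arnt, the partner of the alpha subunits, differed by −0.33, Vhl, which encodes the von Hippel-Lindau protein, by −0.57, and Egln2, which encodes PHD1, by −0.20. The exceptions were Plod2, a collagen lysyl hydroxylase (1.47), and Cited2, which competes with HIF for its coactivators (−1.03), and both fell short of 2-fold under at least 1 other scaling. None of the 17 measured in the E2 comparison was 2-fold apart, beside 2.55% of all genes higher and 8.00% lower. In the female comparison none of the 16 measured was, beside 3.51% and 8.57% of all genes. Plod2, not above background on female Tg, was at least 2.24-fold lower there than on male Tg.

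Carbonic anhydrases and acid exporters held the largest measured differences of single genes among the 8 lists. Car2, a cytosolic carbonic anhydrase, had levels of −1.88, 2.01, −0.53 and −1.40 in array order. Male Tg was highest, and male Tg E2 was 1.35 above male WT (2.56-fold). Its differences were 3.89, −2.53 and −3.40 in the 3 main comparisons. Slc16a3, which encodes the lactate exporter MCT4 and is normally kept low in beta cells, had levels of 0.48, 2.01, −0.22 and −0.37, with male Tg the highest, and differences of 1.53, −2.23 and −2.38. Car12, a second membrane carbonic anhydrase, was 2.57 above male WT on male Tg and 1.39 lower on female Tg than on male Tg. Car3 was not above background on male WT and at least 4.91 log2 higher on male Tg, and it was 3.30 lower on male Tg E2 than on male Tg. Car15 went the other way, at −1.96, 1.59 and 1.5. In all, 4 of 10 measured genes of this list were higher and 1 lower on male Tg over male WT, with a median of 0.25, beside 15.6% and 8.68% of all genes. On male Tg E2 over male Tg, Car9 was at −1.11, Car2 at −2.53 and Slc16a3 at −2.23. In that comparison the marker medians were −0.69 for acinar, −3.38 for red cell, −2.59 for adipocyte (2 measured) and −1.86 for lymphocyte markers, whose part was not tested.

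Among glycolytic targets, 3 of 21 measured were higher and 1 lower on male Tg over male WT, beside 15.6% and 8.68% of all genes. Hk2, not above background on male WT, was at least 1.74 log2 higher on male Tg. Ldha, the lactate dehydrogenase subunit that beta cells normally keep low, had levels of 4.39 on male WT, 6.69 on male Tg, 5.0 on male Tg E2 and 4.86 on female Tg. It was highest on male Tg, 2.30 above male WT, 1.69 above male Tg E2 and 1.84 above female Tg. Pfkfb3, an enzyme that speeds glycolysis, was 2.0 higher and the glucose transporter gene Slc2a3 1.51 higher on male Tg than on male WT, while Eno2, an enolase, was 1.01 lower. Slc2a3 (−1.42), Pfkfb4 (−1.07) and Pfkp (−1.03) were lower on male Tg E2 than on male Tg. Pdk1, which slows the entry of pyruvate into the citrate cycle, was 1.13 lower on female Tg than on male Tg. Slc2a1 and Pgk1, also classical targets, stayed within 2-fold in all 3 comparisons, at −0.28 and 0.27 in the first.

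The remaining HIF targets lay on both sides. On male Tg over male WT, 9 of 24 measured were higher and 4 lower, with a median of 0.47, beside 15.6% and 8.68% of all genes and their median of −0.21. Ak4, a mitochondrial adenylate kinase, was 3.62 higher, the chemokine gene Cxcl12 3.23, Angptl4, an inhibitor of lipoprotein lipase, 2.55, and Higd1a, a mitochondrial protein gene, 2.33. Stc2 and Edn1, which encodes endothelin-1, were not above background on male WT. They were at least 4.07 and at least 2.62 log2 higher on male Tg. Angptl4 had levels of 0.01, 2.56, 2.61 and 0.11, a high pair and a low pair as for Egln3. Male Tg E2 differed from male Tg by 0.05 and female Tg from male Tg by −2.44. On male Tg E2 over male Tg, 1 of 26 was higher, Igfbp3 (1.40), and 5 lower, beside 2.55% and 8.00% of all genes. The lower ones included Cxcl12 (−1.45), Edn1 (−1.34) and Ak4 (−1.33). On female Tg over male Tg, 8 of 24 were lower and none higher, beside 8.57% of all genes lower and 3.51% higher. The lower ones included Stc2 (−2.21), Selenbp1 (−1.59) and Angptl4.

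**Figure D4:**
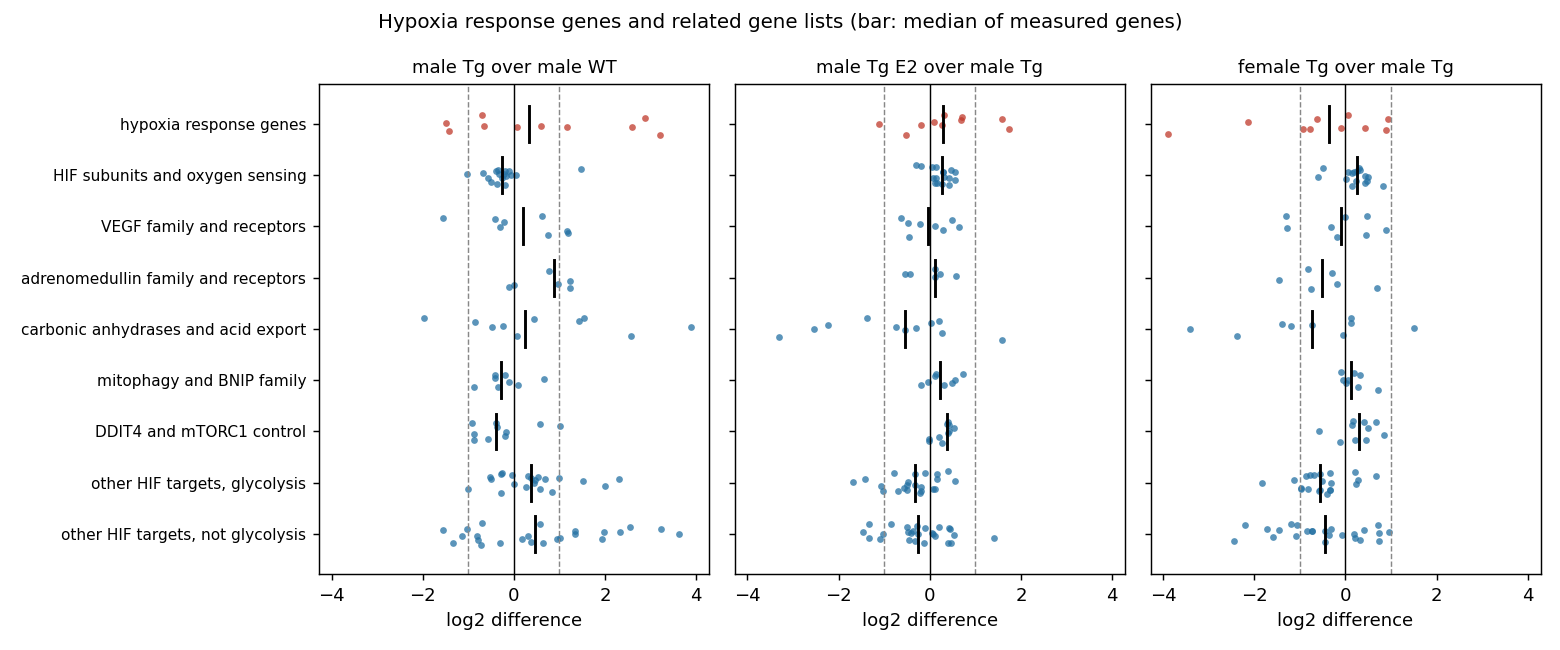
Log2 difference (x axis) of each measured gene of the 10 hypoxia genes (red) and of 8 related lists (blue) in the 3 main comparisons; black bars are list medians, dashed lines mark 2-fold, and the vertical scatter of points carries no value. The 10 genes and the carbonic anhydrases reach past 2-fold on both sides, while 15 of 17 oxygen-sensing genes lie between the lines on male Tg over male WT.

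Relatives of Vegfa, Adm, Bnip3 and Ddit4 were also read. In the VEGF family, Vegfb was lower on male Tg than on male WT (−1.56), like Vegfa, while Vegfd (1.17, then −1.29 on female Tg over male Tg) and the co-receptor gene Nrp2 (1.2) were higher. The VEGF receptor genes Kdr (0.62) and Flt1 (−0.41) lay within 2-fold there, Flt4 was above background only on male WT, and Kdr was 1.30 lower on female Tg than on male Tg. In the adrenomedullin family, Ramp1, a subunit of its receptors, was 1.23 higher and Calca, which encodes calcitonin and CGRP, 1.22 higher on male Tg than on male WT. Calcrl, the receptor that RAMPs pair with, was not well above background on any array, and Ackr3, which can take up adrenomedullin, was 1.45 lower on female Tg than on male Tg. None of 8 mitophagy genes was 2-fold apart in any of the 3 comparisons. Of all genes, 15.6% were higher and 8.68% lower in the first, 2.55% and 8.00% in the second and 3.51% and 8.57% in the third. Bnip3l, the closest relative of Bnip3, differed by −0.11, 0.11 and −0.05. Of 10 measured genes around DDIT4 and mTORC1, Ddit4l was 2-fold apart, 1.02 higher on male Tg than on male WT, beside the shares given for that comparison. Tsc2, which encodes an inhibitor of mTORC1, was not above background on male Tg and at least 2.55-fold lower there than on male WT.

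Of the 45 differences of listed genes picked by size in the 3 comparisons, all kept their sign under 7 scalings. This was in part fixed in advance, because each was picked at 2-fold or more. Scalings that shift all genes of a comparison by the same amount did so by less than 2-fold and could not change these signs. Those that fell below 2-fold under at least 1 of them were Plod2, Cited2, Nrp2, Vegfd, Ramp1, Calca, Ddit4l and Eno2 when male Tg was set against male WT, Pfkfb4, Pfkp, Edn1 and Ak4 when male Tg E2 was set against male Tg, and Vegfd, Ackr3, Car12 and Pdk1 when female Tg was.

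The genes whose 4 levels, each centred on its mean, lay nearest to those of Car9 among 13887 genes were Aldh1a7, an aldehyde dehydrogenase gene (Euclidean distance 0.11 log2), Tmed6 (0.18) and Cnn1, a smooth muscle calponin gene (0.23). For Tmed6 the levels were 1.89, 5.02, 4.05 and 1.38. Nearest to Vegfa were Gm9958 (0.05), Pigh (0.05) and the potassium channel partner gene Kcnip1 (0.06). For Kcnip1 the levels were 1.2, −0.35, 0.37 and 0.51. With 4 arrays such nearness is a description only.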

How the data were processed

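Total RNA of islets in 4 groups was hybridised to 1 array each and labelled with Cy3. The deposited scanner files hold intensity on a linear scale per spot, already background-corrected (gProcessedSignal), per the file headers. These name Feature Extraction 10.7.1.1 and probe positions on mm9, whereas the submitters' processing notes name version 9.5.1.1. The values deposited by the authors in the series matrix are linear intensity with identical quantiles on all 4 arrays. Their log2 values correlated with the scanner values at 0.9995 to 0.9999, and their normalization is not given in the sources used here.

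Spots with an outlier flag and controls were left out, spots of a probe averaged on the log2 scale, and the 75th percentile over 55681 probes subtracted per array. Probes were named through RefSeq GRCm38.p6 (27235 by accession, 3581 by symbol, 565 by synonym, 24300 not). A gene is its probe with the highest mean level. Python 3.11.15, numpy 2.4.6, pandas 2.3.3 and, for normexp, limma 3.58.1 in R 4.3.3 were used, and the scripts were tested on simulated data. Other hypoxia genes are named by rule: among genes at least 2-fold apart, the 4 of each list that differed most in each main comparison. Genes nearest to Car9 and Vegfa were chosen by Euclidean distance. Arnt, Vhl, Egln2, Slc2a1, Pgk1, Hk2, Flt1, Flt4, Bnip3l, Calcrl, Tsc2, Cfd and Retn were named after values were seen. The genes, lists and rules were chosen with earlier results of these data known. Exon and untranslated region were not assigned. A gene that this rule names and a probe sequence are not reported here.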

Additional observations from a re-analysis of the deposited data

How the results depend on the processing

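No paired analysis was possible because each group has 1 array, and leaving out a replicate was likewise not possible. Of 400 differences of the 10 genes under an alternative, 363 moved by less than 1 SE and 37 by more. Part of the 363 was fixed in advance. All 10 genes were above background on every array, so leaving out the background filter could not move them. Averaging the probes of a gene could not move genes with 1 measured probe. The percentile over probes above background on all arrays shifted all genes of a comparison by less than the smallest SE, so it could not move them either. None of the 17 differences of at least 2-fold changed sign. Of these, 14 stayed past 2-fold under every alternative, the exceptions being Hif3a (male Tg over male WT), Bnip3 (female Tg over male WT) and Car9 (male Tg E2 over male Tg). At 1.5-fold, 4 genes were lower in male Tg over male WT, as were 25.1% of all measured genes. In male Tg E2 over male Tg, 5 were then apart and 4 higher, beside 11.3% of all genes higher and 14.2% lower. In female Tg over male Tg, 7 were then apart, 2 higher and 5 lower. Of all genes, 14.3% were higher and 15.4% lower there. In male Tg E2 over male Tg, 0 genes were lower under median centring and under normexp, against 6.61% and 5.07% of all genes. In female Tg over male Tg, 1 gene was higher under quantile normalization (all genes 4.17%) and 1 with the series matrix values (all genes 4.24%). Under median centring 2 were higher and 4 apart, beside 5.62% of all genes higher and 7.29% lower. In female Tg over male WT, 5 genes were apart at 1.5-fold, beside 13.3% of all genes higher and 13.2% lower. There 1 gene was apart under quantile normalization, with the percentile over probes above background on all arrays, with the series matrix values, with the mean over a gene's probes and, an alternative chosen after seeing the data, relative to the median of all genes. In that comparison and under those settings, 7.06% to 9.43% of all genes were higher and 2.28% to 3.37% lower. The causes were not tested, except that a looser threshold adds genes by construction. Signal over background limits Adm on male WT, Egln1 and the second Egln3 probe, and the number of arrays limits every value.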
